A study of Mus musculus with 24 samples.

Results

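Mature migratory dendritic cells were examined in Panc02 tumors, a mouse pancreatic cancer line grown under the skin of male C57BL/6 mice aged 6 to 7 weeks. A barcode was counted as a member when it held at least 1000 UMIs (unique molecular identifiers, 1 for each captured RNA molecule), under 10% of them from mitochondrial (mt-) genes, at least 2 of *Ccr7*, at least 1 of *Fscn1*, and at least 5 of *Cd74*. It also had to hold no *Cd3d*, *Cd3e*, *Cd3g*, or *Cd79a* and under 10 per 10000 of the complement genes *C1qa*, *C1qb*, and *C1qc*. This rule found 292 members among 120912 barcodes within the same limits on UMIs and mt- UMIs, or 0.241%, out of 144994 barcodes in all. The members were selected on measured RNA, so their difference from other cells is given as a description with no test.

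The study covered 8 treatments: isotype control, anti-PD-1, anti-CTLA-4, both antibodies, PancVAX (a vaccine of tumor neoantigen peptides), PancVAX with anti-PD-1, PancVAX with anti-CTLA-4, and PancVAX with both. The paper gives the PancVAX treatment without checkpoint antibody as PancVAX with isotype antibodies. It is here called PancVAX or PancVAX alone. PancVAX was given on days 12 and 19 at a peptide dose of 50 ug, which the methods give for each peptide, anti-PD-1 at 100 ug from day 12, anti-CTLA-4 at 100 ug on days 15 and 22, and tumors were harvested on day 38. This is the schedule of the methods. A figure legend gives day 19 in place of 22 for anti-CTLA-4 and an earlier day for the tumors. The vaccine also held the adjuvant AddaVax and a STING agonist, and PBS was given in its place, so an effect of PancVAX joins peptides and adjuvants. Tumors were pooled by treatment, and each treatment had 1 whole tumor library of all dissociated cells and 1 library of immune cells enriched over Percoll, which makes 16. The sources do not say whether the same mice went into both libraries of a treatment, which are here called its pool. Libraries held 4881 to 10640 cells within the limits and 8 to 37 members, and pools held 23 to 59 members. Members held a median of 7424.5 UMIs, with a range of 1126 to 65537. The paper kept only cells with 200 to 3000 genes, at most 10000 UMIs, and no hemoglobin gene expression. Of the 292 members, 103 were over 10000 UMIs and 189 were within the study's limits on cells. Those 189 held 967354 of the 3057915 member UMIs, so most UMIs behind the summed levels came from deeper members outside these limits.

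Conventional dendritic cells sample antigen in tissue as type 1 cells (cDC1), known for cross-presentation to CD8+ T cells, or type 2 cells (cDC2), known for presentation to CD4+ T cells. On maturation both turn on the chemokine receptor *Ccr7*, which guides them toward lymph nodes, and the actin-bundling protein *Fscn1*, and they reshape their chemokines, costimulatory ligands, and antigen uptake. Mature cells of this kind in tumors carry both stimulatory genes, such as *Cd40* and *Il12b*, and regulatory genes, such as *Cd274*, which encodes PD-L1. For comparison, 670 cDC1 cells (at least 2 UMIs of *Xcr1* and *Clec9a*), 664 cDC2 cells (at least 2 UMIs of *Cd209a*, *Clec10a*, and *Mgl2*), and 19024 C1q macrophages were taken, all with *Ccr7* at 0.

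The 3 marker genes that the rule did not use were present in most members. *Ccl22*, a chemokine that attracts CCR4+ cells such as regulatory T cells, stood at 14.3 UMIs per 10000 in members, 0.16 in cDC1 cells, 0.06 in cDC2 cells, and 0.01 in macrophages. *Cacnb3*, a calcium channel subunit, stood at 3.98 per 10000 in members and at 0.06 or less in the other groups. *Il4i1*, a secreted amino acid oxidase that limits T cells, stood at 3.84 per 10000 in members and at 0.03 or less in the others. *Ccl22* was detected in 250 of 292 members, *Cacnb3* in 251, and *Il4i1* in 215. With every cell thinned to 1000 UMIs, a *Ccl22* UMI was expected in 56.9% of members, 1.07% of cDC1 cells, 0.593% of cDC2 cells, and 0.104% of macrophages. Free RNA was not measured. Levels of *Ccl22* in the 8 pools ran from 8.77 to 20.8 per 10000, with a median of 13.7, and the lowest member pool was above the highest cDC1 pool at 0.43.

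**Figure D1:**
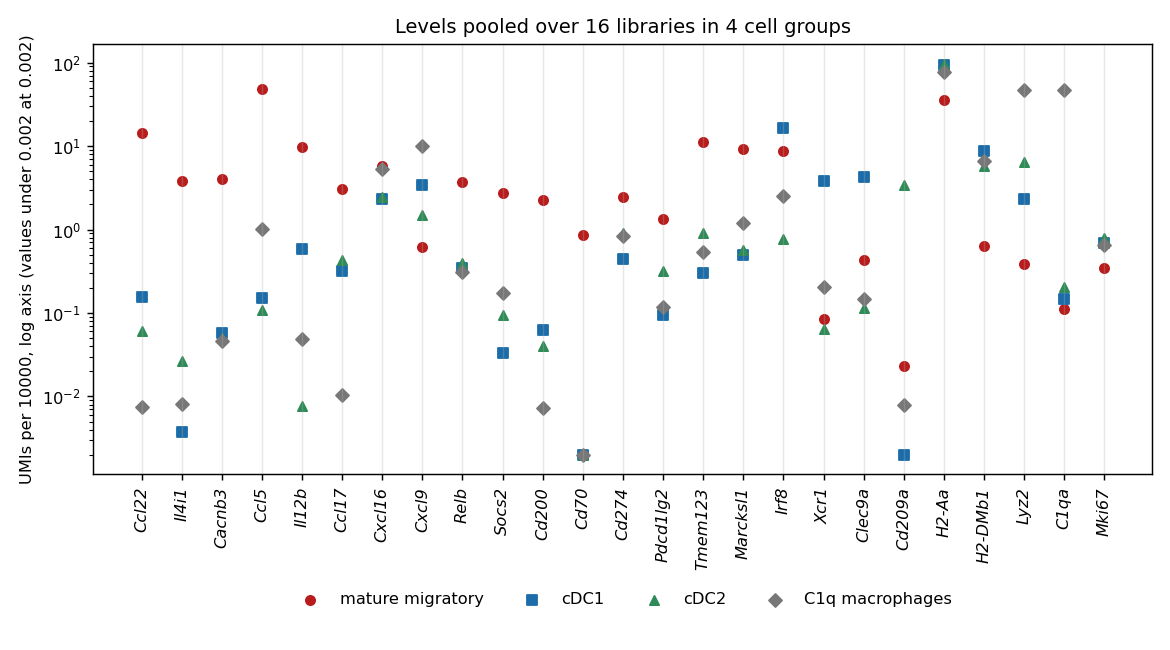
UMIs per 10000 (log axis, values under 0.002 drawn at 0.002) of 25 genes in mature migratory cells, cDC1 cells, cDC2 cells, and C1q macrophages, summed over 16 libraries. Ccl22, Il4i1, Cacnb3, Ccl5, Il12b, Ccl17, Cd200, and Cd70 stood highest in mature cells, while H2-Aa, H2-DMb1, Cxcl9, and Mki67 stood lowest there.

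Genes of maturation stood above both conventional types in 19 of 20 cases, beside 41.2% of 9924 genes with 10 or more UMIs in members. *Tmem123* stood at 11.1 per 10000 in members against 0.30 in cDC1 and 0.90 in cDC2 cells, *Marcksl1* at 9.28 against 0.50 and 0.56, and *Socs2*, an inhibitor of cytokine signaling, at 2.73 against 0.03 and 0.09. The exception was *Cst7*, a protease inhibitor, with 7 UMIs in all members. All 17 genes of the NF-kB pathway, the signaling route that drives dendritic cell maturation, stood above both types. *Relb*, a subunit of the noncanonical pathway, stood at 3.67 per 10000 against 0.35 in cDC1 cells and 0.40 in cDC2 cells. *Birc2* stood at 1.43 against 0.09 and 0.22, and *Nfkbia*, the inhibitor that is itself an NF-kB target, at 18.3 against 6.74 and 10.6.

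Ligands read by T cells stood above both conventional types in 12 of 15 genes, beside 41.2% of all genes. *Cd40*, *Cd80*, *Cd86*, and *Cd200* were also counted among the maturation genes. *Cd70*, the ligand of the costimulatory receptor CD27, had 261 UMIs in 82 members, at 0.85 per 10000, and 0.00127 or less in the other 3 groups. *Cd200*, an inhibitory ligand, stood at 2.29 against 0.06 in cDC1 cells and 0.04 in cDC2 cells. The PD-1 ligands *Cd274* and *Pdcd1lg2* stood at 2.42 and 1.35 in members, against 0.45 and 0.09 in cDC1 cells and 0.90 and 0.32 in cDC2 cells. *Cd80* stood at 1.97 against 0.25 and 0.57, whereas *Cd86*, which shares its receptors CD28 and CTLA-4, differed little at 1.57 against 1.38 and 1.40. *Cd274* and *Pdcd1lg2* were detected together in 112 members, *Cd274* alone in 97, and *Pdcd1lg2* alone in 27. The exceptions were *Tnfsf18*, *Lgals9*, and *Vsir*, and *Vsir*, which encodes the checkpoint VISTA, stood at 0.11 per 10000 in members and 1.80 in macrophages.

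Regulatory enzymes and signal inhibitors stood above both types in 11 of 12 genes, beside 41.2% of all genes. *Il4i1* and *Socs2*, already described above, were among them. *Cblb*, a ubiquitin ligase that damps activation, stood at 1.81 per 10000 against 0.20 in cDC1 and 0.14 in cDC2 cells. *Aldh1a2*, which makes retinoic acid, stood at 1.31 against 0.93 and 0.13. *Ido1*, which degrades tryptophan, was near absent, with 13 UMIs in 8 members, or 0.04 per 10000. *Ido2* had 5 UMIs in members, though both genes count among the 11. *Socs3* was the exception, at 0.71 per 10000 against 1.54 in cDC2 cells.

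Of 11 chemokines, 5 stood above both conventional types and 5 below both, near the 41.2% and 38.2% of all genes. *Ccl5*, which draws T cells, was the most abundant chemokine, at 48.4 per 10000 in members against 0.15 in cDC1 cells, 0.11 in cDC2 cells, and 1.02 in macrophages. Pools ran from 33.9 to 76.3 per 10000, all above the other groups. *Ccl17*, the second ligand of CCR4, stood at 3.04 per 10000 against 0.32 in cDC1 and 0.44 in cDC2 cells, and *Cxcl16* at 5.83 against 2.33 and 2.42. *Cxcl9*, an interferon-gamma-induced ligand of CXCR3, ran the other way, at 0.62 per 10000 in members, 3.43 in cDC1 cells, 1.49 in cDC2 cells, and 10.1 in macrophages, and was below cDC1 cells in every pool. *Ccl3* and *Ccl4*, inflammatory chemokines, stood at 0.10 and 0.34 in members and at 4.00 and 11.7 in macrophages. *Ccl19*, the ligand of CCR7 itself, had 2 UMIs in 2 members.

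Among cytokines, *Il12b*, the p40 subunit shared by IL-12 and IL-23, stood at 9.62 per 10000 in members, 0.59 in cDC1 cells, and 0.01 in cDC2 cells. It was detected in 143 members, and the 10 members richest in it held 38.3% of its 2943 UMIs. Its partner subunits were near absent, with 1 UMI of *Il12a* and 0 of *Il23a* in 3057915 member UMIs. *Il15* and its presenting receptor *Il15ra* stood at 0.45 and 0.74 per 10000, against 0.11 and 0.03 in cDC1 cells. *Il1b* stood at 4.08 per 10000 in members, 3.00 in cDC1 cells, and 21.5 in cDC2 cells, and *Il10* had 0 UMIs in members.

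Class II genes were low in members. No gene of the class II pathway stood above both conventional types, and 10 of 12 stood below both, beside 38.2% of all genes. *H2-Aa*, a class II chain, stood at 35.8 per 10000 in members, 94.4 in cDC1 cells, and 97.5 in cDC2 cells. *H2-DMb1*, part of the peptide loading complex, stood at 0.64 against 8.63 and 5.76, and *Ciita*, the master regulator of the pathway, at 0.22 against 1.38 and 0.98. *Cd74*, 1 of the 12, was part of the rule. Class I genes stood above both types in 6 of 13 cases, close to the 41.2% of all genes, with *B2m* at 30.8 per 10000 against 13.4 and 15.5, and *H2-K1* at 25.4 against 12.6 and 14.3. *Psmb9* and *Tap1* lay between cDC2 and cDC1 cells.

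Of 12 genes of cDC1 identity, 7 stood below both conventional types in members and 1 above both, and of 10 genes of cDC2 identity, 6 stood below both and 0 above, beside 38.2% of all genes below both and 41.2% above. These lists hold *Xcr1*, *Clec9a*, *Cd209a*, *Clec10a*, and *Mgl2*, which chose the comparison cells. *Naaa*, a lipid hydrolase of cDC1 cells that chose none, stood at 0.23 per 10000 against 11.1 in cDC1 cells. *Irf8*, the factor of cDC1 development, remained at 8.66 per 10000, between cDC1 cells at 16.5 and cDC2 cells at 0.77. *Ly75*, the uptake receptor DEC-205, was 1 of 3 uptake genes above both types, with 4 of 13 below both, neither beyond the shares of all genes, and stood at 2.76 per 10000 against 0.52 and 0.14. All 10 cell cycle genes stood below both types, with *Mki67* at 0.34 per 10000 against 0.69 and 0.80.

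These few cells held a large part of certain transcripts. Members held 0.171% of all UMIs of cells within the limits but 65.4% of those of *Ccl22*, with a range of 32.7% to 89.6% over the 16 libraries. They held 46.1% of *Il12b* UMIs, 45.0% of *Il4i1* UMIs, 31.8% of *Cd70* UMIs, and 30.7% of *Ccl17* UMIs. Over libraries *Il12b* ran from 7.25% to 68.8%, *Cd70* from 2.70% to 62.7%, and *Ccl17* from 3.40% to 65.2%, so single libraries departed far from the sums. *Ccr7* and *Fscn1*, used by the rule, had 31.0% and 26.1% of their UMIs in members. By contrast members held 3.66% of *Cd80* UMIs, and macrophages held 62.7% of those of *Cd40*.

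**Figure D2:**
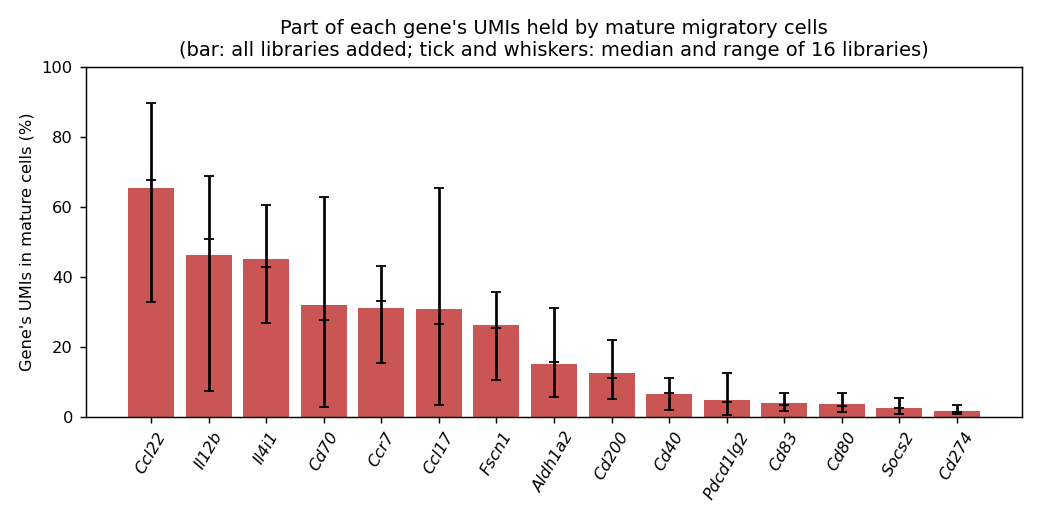
Percent of each gene's UMIs, among cells within the limits, that lay in the 292 mature migratory cells. Bars add all 16 libraries, and ticks with whiskers give the median and range over libraries, from 32.7% to 89.6% for Ccl22.

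Members were not uniform. Members were grouped by traces of cDC1 or cDC2 genes, as any UMI of *Xcr1* or *Clec9a* without a cDC2 gene (41 members), or any UMI of *Cd209a*, *Clec10a*, or *Mgl2* without a cDC1 gene (24 members), while 225 held neither and 2 held both. Of the 24 members, 19 held *Mgl2*, 5 *Clec10a*, and 3 *Cd209a*. Over all cells, C1q macrophages held 55.6% of *Mgl2* UMIs and 45.4% of *Clec10a* UMIs, against 24.2% and 16.9% in cDC2 cells. Macrophages also held 37.3% of *Xcr1* and 26.4% of *Clec9a* UMIs, against 47.8% and 53.6% in cDC1 cells. These are shares of all UMIs, over 19024 macrophages against 670 cDC1 and 664 cDC2 cells, and not levels per cell. As other cells also held these genes, either trace names the genes used and not an origin. The split was made on measured UMIs after values were seen and carries no test. Members with a cDC1 trace had *Il12b* at 23.3 per 10000, with a UMI in 37 of 41, against 1.03 in members with a cDC2 trace, where 7 of 24 had one, and 7.04 in the rest. *Il12b* was higher in the cDC1 trace group in 8 of 8 pools, though a pool held 1 to 9 members with a cDC1 trace and 1 to 8 with a cDC2 trace. *Irf8*, which marks cDC1 cells, stood at 12.9, 4.13, and 8.16 in the same order and was likewise higher with the cDC1 trace in 8 of 8 pools. So were other genes, among them *Nudt17*, *Bcl2l14*, *Adam8*, *H2-K1*, *H2-D1*, *Tapbpl*, and *Nfkb2*, so this count was not particular to cDC1 genes. In the same order *Ccl22* stood at 19.9, 7.48, and 13.9, *Fscn1* at 26.5, 12.1, and 34.2, and *Ccr7* at 28.5, 27.7, and 37.9. *Pdcd1lg2* stood at 2.35 with a cDC1 trace, 0.61 with a cDC2 trace, and 1.16 in the rest, and *Il4i1* ran the other way at 2.68, 6.60, and 3.66. *Ccl17* differed little, at 2.44, 2.62, and 3.01. Median depths were 13728, 11820.5, and 6659 UMIs, so the 225 members with neither trace were the shallowest, and a trace was least detectable there.

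**Figure D3:**
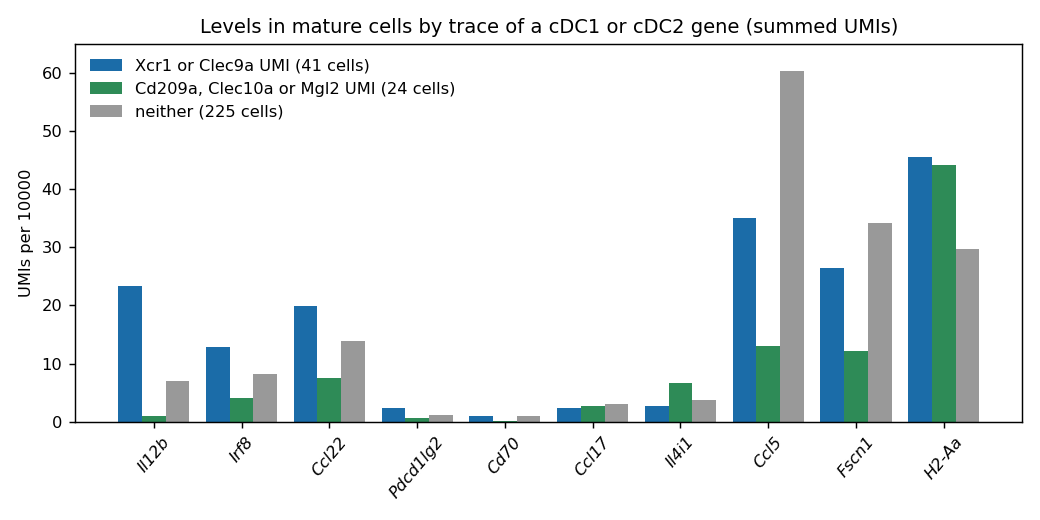
Summed UMIs per 10000 of 10 genes in members with a trace of a cDC1 gene, a cDC2 gene, or neither. Il12b stood at 23.3, 1.03, and 7.04 in that order, and Il4i1 at 2.68, 6.60, and 3.66.

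Detection of pairs of chemokine and cytokine genes in the same member was counted. These counts move with depth and were not compared with those of independent detection. *Il12b* and *Ccl22* were both detected in 133 members, *Il12b* alone in 10, and *Ccl22* alone in 117. *Il12b* and *Ccl17* were both detected in 59 members, with 84 for *Il12b* alone, 67 for *Ccl17* alone, and 82 with neither. *Ccl5* and *Ccl22* were both detected in 213 members.

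Other cells' RNA was checked in members against marker lists. The macrophage list holds the 3 C1q genes that the rule limited and *Spp1*, which gave 76.7% of its UMIs in members although macrophages held 2.11% of *Spp1* UMIs over all cells. The other 8 genes summed to 1.02 per 10000 in members, 2.80 in cDC1 cells, 8.77 in cDC2 cells, and 18.1 over all cells. Of 13 T and NK cell genes, *Cd3d*, *Cd3e*, and *Cd3g* were at 0 by the rule, and the list summed to 0.314 per 10000 (pools 0.189 to 0.506) against 5.32 over all cells. In cDC1 cells this list summed to 0.538 and in cDC2 cells to 0.222. *Cd8a* gave 46 of its UMIs in members, more than any other gene of the list. Among 7 B cell genes, *Cd79a* was at 0 by the rule and *Pax5* was at 0, and the list summed to 0.101. Endothelial genes summed to 0.0425 against 0.272 over all cells, and plasmacytoid dendritic cell genes to 0.762 against 1.63. Of 4 mast cell genes, 3 were at 0, and *Kit* alone gave 0.183, against 0.450 for the list in cDC1 cells and 0.0512 over all cells. Neutrophil genes summed to 1.20, against 0.362 in cDC1 and 0.233 in cDC2 cells, with *Ly6g* at 0 and 5 members holding *S100a8*. T cell receptor contigs, read from separate libraries of the 8 Percoll preparations, were found for 0 of 129 members, which allows a share of up to 2.33%. The rule had already removed barcodes with a *Cd3* UMI, so it had partly set this result. Contigs were found for 0 of 339 cDC1 cells and 3 of 8638 macrophages, also taken without *Cd3* UMIs, and for 8006 of 62114 cells with no such limit. As every member value was 0, the planned comparison by PancVAX gave no test. Of 13 Percoll barcodes that failed the rule only by a *Cd3* UMI, 7 had a contig.

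Tumor or stromal RNA set 18 members apart. In them the tumor or epithelial list (*Epcam*, *Krt7*, *Krt8*, *Krt18*, *Krt19*) and the stromal list (*Col1a1*, *Col1a2*, *Col3a1*, *Dcn*, *Lum*, *Sparc*) together made 20 or more per 10000. They had a median of 34159.5 UMIs against 6948 in the other 274 and held 20.8% of the member UMIs. *Krt8* stood at 7.82 per 10000 in them and 0.49 in the others, whereas *Ccl22* stood at 2.32 and 17.5. Whether they hold more than 1 cell was not tested. They made 0% of the member UMIs in the isotype control pool, 1.2% with PancVAX and anti-PD-1, 41.0% with PancVAX and anti-CTLA-4, and 17.4% to 27.2% in the other 5 pools. Of all 292 members, 51 shared a barcode sequence with another library, or 17.5% against 17.2% of all cells.

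Around the thresholds, 28 members had *Ccr7* at exactly 2 UMIs, with *Ccl22* at 8.48 per 10000, and 42 barcodes fell just outside with 1 UMI and *Ccl22* at 1.80. Another 166 barcodes failed only for want of *Fscn1*, with *Ccl22* at 2.83 and *H2-Aa* at 116, and 34 failed only by *Cd74*. The last had *Ccl22* at 5.48 but *Ccl5* at 70.8 and *Cacnb3* at 4.33, above the members for both.

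The first treatment question was whether any agent changed how frequent these cells were. Shares of all cells, as the mean of both libraries, were 0.196% with isotype control, 0.207% with anti-PD-1, 0.220% with anti-CTLA-4, and 0.258% with both antibodies. With PancVAX they were 0.190% alone, 0.296% with anti-PD-1, 0.360% with anti-CTLA-4, and 0.196% with both. The 2 pools that combined PancVAX with 1 antibody were the highest, while PancVAX alone and with both antibodies lay at the isotype control level. With anti-CTLA-4 the share was high in both preparations (0.381% in whole tumor and 0.338% in Percoll). With anti-PD-1 it rested on the whole tumor library at 0.422%, as the Percoll library stood at 0.169%, below 5 of the other Percoll libraries. Over 4 pools with PancVAX the share was 0.260% ± 0.082 (SD, n = 4) against 0.220% ± 0.027 (SD, n = 4) without, and the groups overlapped (exact permutation test over 70 splits, two-sided *P* = 0.457, adjusted over 6 tests by Benjamini-Hochberg 0.857). With anti-PD-1 the share was 0.239% against 0.241% without (exact permutation *P* = 0.943), and with anti-CTLA-4 it was 0.258% against 0.222% (exact permutation *P* = 0.514). Leaving out the pool of PancVAX with anti-CTLA-4 brought the PancVAX difference from 0.0401 to 0.00697 percentage points and the anti-CTLA-4 difference from 0.0358 to 0.00205. Exact binomial 95% intervals of single libraries were wide, from 0.0708% to 0.323% for the isotype control Percoll library with 8 members and from 0.283% to 0.605% for the whole tumor library of PancVAX with anti-PD-1 with 29. They cover counting error only. The differences in percentage points without the 18 members with tumor or stromal RNA were 0.0305 for PancVAX, 0.00201 for anti-PD-1, and 0.0234 for anti-CTLA-4 (exact permutation *P* = 0.457, 0.943, and 0.543).

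**Figure D4:**
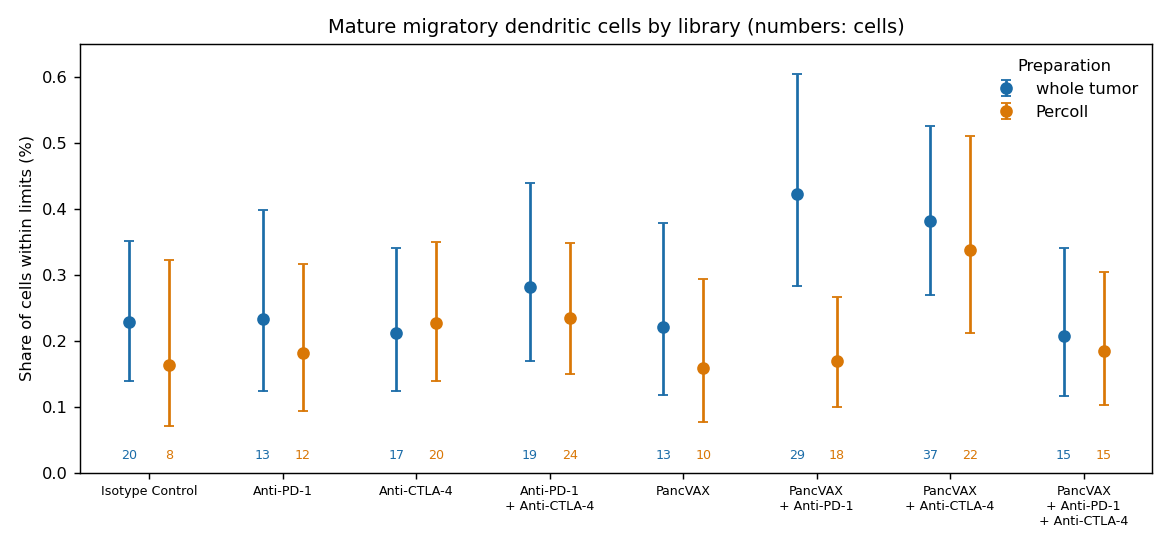
Share of mature migratory cells among cells within the limits in each of 16 libraries (percent, with exact binomial 95% intervals), by treatment and preparation, with the number of member cells above the axis. The whole tumor libraries of PancVAX with anti-PD-1 (0.422%) and PancVAX with anti-CTLA-4 (0.381%) were highest. Their intervals lay above that of the Percoll library of PancVAX with anti-PD-1, which ended at 0.267%, and every other pair of intervals overlapped.

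Mature cells were also counted as a part of conventional dendritic cells, that is of mature, cDC1, and cDC2 cells together. The pools lay between 14.2% (PancVAX with both antibodies) and 19.9% (PancVAX with anti-CTLA-4). This share was 17.4% ± 2.63 (SD, n = 4) with PancVAX and 18.3% ± 1.20 (SD, n = 4) without (exact permutation *P* = 0.486), and neither antibody differed beyond the spread of pools (exact permutation *P* = 0.571 for anti-PD-1 and 0.857 for anti-CTLA-4). In these lowest and highest pools, cDC1, cDC2, and mature cells numbered 76, 106, and 30 among 15380 cells with all 3 agents. With PancVAX and anti-CTLA-4 they numbered 128, 113, and 59 among 16216 cells. The isotype control pool held 59, 66, and 28 among 13648 cells.

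Percoll enrichment, which is also the second sequencing batch, gave a lower share of mature cells than the whole tumor. The share was 0.207% ± 0.060 (SD, n = 8) against 0.273% ± 0.083 (SD, n = 8), lower in 7 of 8 treatments (exact sign-flip permutation *P* = 0.0156), or 0.758 of it. The difference of −0.0662 percentage points became −0.0395 on leaving out PancVAX with anti-PD-1 (exact permutation *P* = 0.0312), and −0.0532 with barcodes of 1 library only, where the call was lost (exact permutation *P* = 0.0547). With each cell thinned to 1000 UMIs fewer cells met the rule, and the shares were 0.0853% and 0.110%, a ratio of 0.779, lower in 4 of 8 treatments (exact permutation *P* = 0.539). Among cells with a UMI of the leukocyte gene *Ptprc* the shares were 0.321% and 0.337%, a ratio of 0.953 (exact permutation *P* = 0.875). Members were limited in the same way, and 144 of the 292 were kept, so this setting does not isolate a change of denominator.

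The second question was which genes each agent changed within these cells. Member UMIs were summed by pool, and 4664 genes were tested with edgeR. The call required a Benjamini-Hochberg adjusted *P* below 0.05 and a log2 fold change above 0.5 in size. PancVAX gave 1 call, or 0.0214% of the genes tested, anti-PD-1 gave 0 calls, or 0%, and anti-CTLA-4 gave 7, or 0.15%. Unadjusted *P* values below 0.05 numbered 235, 276, and 565. DESeq2 called 4, 0, and 22 genes.

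The 1 call with PancVAX was *Cfp*, which encodes properdin, a complement protein. It stood at 0.032, 0, 0, and 0.020 per 10000 in the pools of isotype control, anti-PD-1, anti-CTLA-4, and both antibodies, and at 0.76, 0.51, 0.41, and 0.47 in the matching pools with PancVAX. The groups did not overlap, and all 4 PancVAX pools were higher (edgeR Benjamini-Hochberg adjusted *P* = 0.0109). The pools without PancVAX held 2 *Cfp* UMIs in all and those with it 82, so the gene could pass the filter on low counts only through the pools where it was high. Its adjusted *P* is therefore a description and not support for a change, and no fitted fold is given. The ratio of the summed levels was 33.9. Its exact 95% interval for counting error, 9.08 to 284, takes each UMI as independent and is likewise a description and not support for a change. The gene had 84 UMIs in 20 members, and 10 cells held 86.9% of them. The 24 members with a cDC2 trace held 60 of these UMIs, at 1.47 per 10000 against 0.03 with a cDC1 trace and 0.11 with neither. Over all cells, the 19024 macrophages held 70.6% of *Cfp* UMIs and the 664 cDC2 cells 6.60%, which are shares and not levels per cell. The 8 macrophage genes other than C1q and *Spp1* summed to 0.429, 0.650, 2.41, and 0.562 per 10000 in members of the pools with PancVAX and to 0.759, 0.308, 0.675, and 0.558 in those without. The part of members with a cDC2 trace or of macrophage RNA in the result was not tested. The call was lost without the 18 members that held tumor or stromal RNA, where the adjusted *P* from edgeR was 0.0557. It was also lost on leaving out the pool of isotype control, anti-CTLA-4, PancVAX with anti-PD-1, or PancVAX with anti-CTLA-4 (edgeR Benjamini-Hochberg adjusted *P* = 0.0615, 0.0846, 0.0888, and 0.0722). The call held in 7 of 16 alternatives. It was also lost with *Ccr7* of at least 3 UMIs, without the 30 members rich in the macrophage list, and with preparation as a covariate (edgeR Benjamini-Hochberg adjusted *P* = 0.0809, 0.222, and 0.0668) and with the pool as a replicate block (limma adjusted *P* = 0.368). In the other 3 alternatives, which were the study's limits on cells, whole tumor libraries alone, and removal of members with T or NK cell RNA, *Cfp* did not pass the filter on low counts.

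No chemokine passed the test with PancVAX. Of 8 tested, 6 had a negative log2 fold change, with a median of −0.46 on the log2 scale, beside 2316 of 4664 and 0.00 over all genes. With the 18 members that held tumor or stromal RNA left out, 4 were negative and 4 positive, with a median of −0.16. The unadjusted *P* was below 0.05 for 5 of the 8, beside 235 of 4664 over all genes, and of the 5 *Ccl4* was higher (log2 fold change 3.15, edgeR Benjamini-Hochberg adjusted *P* = 0.735). *Ccl4* had 103 UMIs in 20 members, 66 of them in the pool of PancVAX with anti-PD-1. Its fold and its *P* among the 5 are therefore a description and not support for a change. The neutrophil list was highest in the same pool, at 4.53 per 10000 against 0 to 1.70 in the others, and its 3 genes tested were positive with PancVAX, with a median of 2.78 on the log2 scale and 0 called. The part of neutrophil RNA in the *Ccl4* value was not tested. *Ccl5* stood at 65.5, 76.3, 43.9, and 59.8 per 10000 in the pools of isotype control, anti-PD-1, anti-CTLA-4, and both, and at 36.1, 41.5, 42.0, and 33.9 in the matching PancVAX pools. All 4 PancVAX pools lay below the lowest pool without PancVAX (log2 fold change −0.68, SE 0.13, edgeR Benjamini-Hochberg adjusted *P* = 0.213). Without the 18 members with tumor or stromal RNA the groups overlapped, since PancVAX with anti-CTLA-4 then stood at 65.9 per 10000. *Cxcl9* stood at 1.99, 0.359, 0.945, and 1.02 without PancVAX and at 0.095, 0.169, 0.151, and 0.406 with it (log2 fold change −2.45, edgeR Benjamini-Hochberg adjusted *P* = 0.213), with overlap between 0.359 and 0.406, and rested on 189 UMIs in 44 members. Of these *Cxcl9* UMIs, 10 cells held 75.1%. Without the 18 members the log2 fold change of *Cxcl9* was −2.09, with the pools again overlapping. *Ccl17* (−1.09 on the log2 scale) had the same adjusted *P*, and *Ccl22* (−0.50) had 0.601 (edgeR with Benjamini-Hochberg). The log2 fold changes of *Ccl5*, *Ccl17*, and *Ccl22* were −0.58, −0.98, and −0.39 without the 18 members. The 3 genes *Ccl5*, *Cxcl9*, and *Ccl17* were called by DESeq2 at adjusted *P* values of 0.0472, 0.0251, and 0.0472. They were called in 3 of 19 alternatives for *Ccl5*, 3 of 19 for *Ccl17*, and 2 of 18 for *Cxcl9*, with the same direction in each alternative. In whole tumor libraries alone the log2 fold changes were −0.60 for *Cxcl9* and −0.58 for *Ccl17*.

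No class II gene passed the test with PancVAX. Leaving aside *Cd74*, which the rule used, 10 of 10 tested had a positive log2 fold change, with a median of 0.39, beside 2348 of 4664 and 0.00 over all genes, and 11 of 11, with a median of 0.48, without the 18 members with tumor or stromal RNA. *H2-Aa* stood at 41.5, 18.4, 35.5, and 32.2 per 10000 without PancVAX and at 56.3, 32.3, 33.4, and 43.2 with it, so the groups overlapped (log2 fold change 0.37, edgeR Benjamini-Hochberg adjusted *P* = 0.990). The log2 fold change was 0.41 without the 18 members and 0.13 to 0.62 on leaving out a pool. Maturation genes had a median of −0.12 over 19 tested, costimulatory and checkpoint ligands 0.16 over 13, and NF-kB genes 0.00 over 17, with 0 called in each, and without the 18 members −0.02, 0.26, and 0.06. *Il12b* stood at 15.7, 8.42, 8.37, and 8.21 per 10000 without PancVAX and at 5.10, 11.9, 10.9, and 5.05 with it, so the groups overlapped. *Cd274* lay between 1.90 and 3.29 per 10000 in all 8 pools. *Il12b* still overlapped without the 18 members, and *Cd274* then lay between 2.31 and 4.12.

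With anti-PD-1 no gene passed. Of 10 class II genes tested other than *Cd74*, 7 were negative, with a median of −0.29 on the log2 scale, beside 2414 of 4664 and −0.01 over all genes, and without the 18 members with tumor or stromal RNA 10 of 11 were negative, with a median of −0.48. In that fit 5 of the 11 had an unadjusted *P* below 0.05, beside 96 of 4029 over all genes, and 0 were called in edgeR. *Scin*, an actin-severing protein, had the smallest *P* and was singled out after its values were seen: it stood at 1.26, 1.00, 3.39, and 2.10 per 10000 in pools without anti-PD-1 (isotype control, anti-CTLA-4, PancVAX, and PancVAX with anti-CTLA-4) and at 4.16, 2.57, 5.46, and 3.37 in the same order with it. It was higher in 4 of 4 such pairs (log2 fold change 1.07, edgeR Benjamini-Hochberg adjusted *P* = 0.585), and 0.88 on the log2 scale without the 18 members, again in 4 of 4. As *Scin* was chosen by its small *P* on the same values, the agreement of pairs is a description and not support for a change. The PD-1 ligands were near level, with log2 fold changes of −0.07 for *Cd274* and 0.12 for *Pdcd1lg2* (edgeR Benjamini-Hochberg adjusted *P* = 0.981 and 0.974), and −0.25 and −0.07 without the 18 members.

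With anti-CTLA-4, *Ccl17* was the 1 chemokine called of 8 tested, and it was called higher. This gene was detected in 126 members, and 10 cells held 40.6% of its 929 UMIs. It stood at 2.56, 2.00, 1.62, and 0.53 per 10000 in the pools of isotype control, anti-PD-1, PancVAX, and PancVAX with anti-PD-1, and at 5.24, 5.12, 3.06, and 2.46 in the same order once anti-CTLA-4 was added. The increase was present in 4 of 4 pairs, though the groups overlapped at 2.46 against 2.56 (log2 fold change 1.33, SE 0.22, edgeR Benjamini-Hochberg adjusted *P* = 0.0428). Without the 18 members with tumor or stromal RNA the pairs were 2.56 and 7.16, 2.33 and 6.35, 2.03 and 4.97, and 0.51 and 2.95, and the groups no longer overlapped, but the call was lost (log2 fold change 1.67, edgeR Benjamini-Hochberg adjusted *P* = 0.393). *Ccl17* kept its direction in 19 of 19 alternatives, with log2 fold changes of 0.662 to 1.67, and its call in 5. The call was lost with preparation as a covariate, in whole tumor or Percoll libraries alone, under the study's limits on cells, and without members with T or NK cell RNA (edgeR Benjamini-Hochberg adjusted *P* = 0.294, 0.961, 0.683, 0.929, and 0.0724), and with the pool as a replicate block (limma adjusted *P* = 0.310). When pools were left out 1 at a time, the call held without the PancVAX pool and was lost without each of the other 7, where the edgeR Benjamini-Hochberg adjusted *P* was 0.0707 to 0.177. *Ccl22*, the partner ligand of CCR4, had a log2 fold change of 0.24 (edgeR Benjamini-Hochberg adjusted *P* = 0.475), and of 0.52 without the 18 members. Its direction was kept in 18 of 19 alternatives, which ran from −0.171 to 0.522.

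*Lars2*, a mitochondrial leucine tRNA synthetase, was the 1 gene called lower with anti-CTLA-4. It stood at 15.1, 19.9, 18.5, and 22.4 per 10000 without anti-CTLA-4 and at 6.83, 9.01, 8.35, and 8.95 with it, in the order given for *Ccl17*, and the groups did not overlap (log2 fold change −1.19, SE 0.12, edgeR Benjamini-Hochberg adjusted *P* = 0.00143). The direction was the same in 19 of 19 alternatives and the call held in 14, among them each of the 8 that left out a pool. The call was lost in the fit of libraries with preparation as a covariate, in that with the pool as a replicate block, and in whole tumor or Percoll libraries alone (Benjamini-Hochberg adjusted *P* = 0.0541, 0.0576, 0.367, and 0.259, from limma for the block and edgeR for the others). Without the 18 members with tumor or stromal RNA the log2 fold change was −0.96 and the call was likewise lost (edgeR Benjamini-Hochberg adjusted *P* = 0.171).

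The other 5 calls were *Krt8*, a keratin of epithelial and tumor cells, *Sparc*, a matrix protein of stromal cells, *Prdx6*, *Ly6e*, and *Ier3*. *Krt8* stood at 0.92, 0.82, 1.57, and 0.65 per 10000 without anti-CTLA-4 and at 4.05, 2.25, 2.58, and 1.90 with it (log2 fold change 1.45, SE 0.23, edgeR Benjamini-Hochberg adjusted *P* = 0.0428). Log2 fold changes were 1.91 for *Sparc*, 1.04 for *Prdx6*, 0.91 for *Ly6e*, and 1.97 for *Ier3* (edgeR Benjamini-Hochberg adjusted *P* = 0.0428 each). Of 8 fits that left out a pool, the call held in 1 for *Krt8*, 2 for *Sparc*, 0 for *Prdx6*, 0 for *Ly6e*, and 1 for *Ier3*. Under the study's limits on cells *Ly6e* and *Ier3* turned to −1.13 and −0.12 on the log2 scale. Without the 18 members with tumor or stromal RNA the log2 fold changes with anti-CTLA-4 were 0.47 for *Prdx6*, 0.24 for *Ly6e*, and 1.72 for *Ier3*, and 0 genes were called in edgeR, with 99 at an unadjusted *P* below 0.05. *Krt8* and *Sparc* were among the genes by which the 18 were chosen, so their values without them say nothing further. The tumor or epithelial list summed to 11.9, 6.26, 6.77, and 4.27 per 10000 in the 4 pools with anti-CTLA-4 and to 3.22, 2.57, 4.44, and 2.05 in the 4 without. The stromal list summed to 2.75, 2.89, 3.26, and 9.95 with anti-CTLA-4 and to 1.04, 1.64, 5.34, and 1.37 without.

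**Figure D5:**
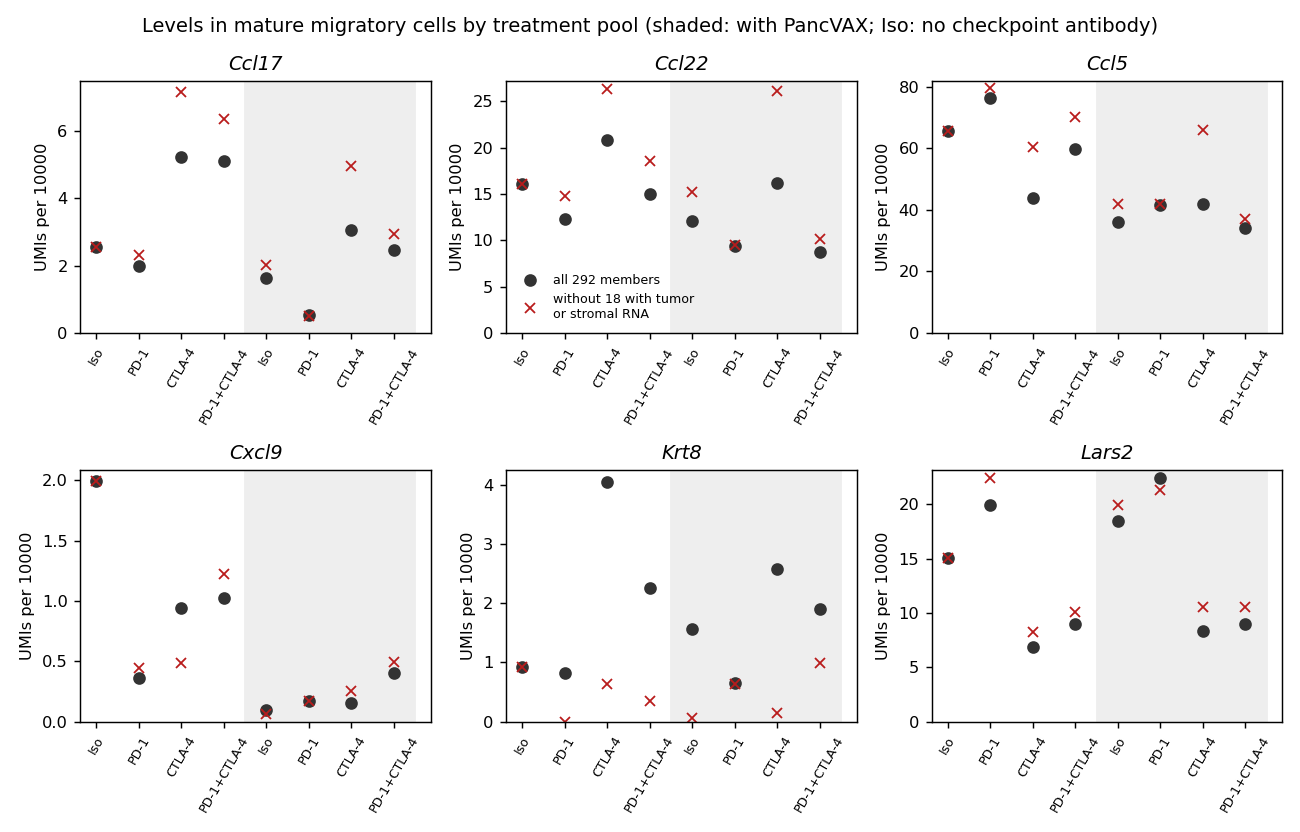
UMIs per 10000 of 6 genes in mature migratory cells summed by treatment pool, with all 292 members (circles) and without the 18 that held tumor or stromal RNA (crosses), pools with PancVAX shaded. Ccl17 was higher and Lars2 lower in each pool with anti-CTLA-4 than in its partner without, by either set of cells. Krt8 was 1 of the genes by which the 18 were chosen, so its fall without them follows from that choice.

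Of 19 maturation genes tested with anti-CTLA-4, 1 was called, the increase of *Ccl17*, and 0 were called lower, beside 0.15% called over all genes. The log2 fold change was negative for 16 of the 19, with a median of −0.37, beside 2379 of 4664 and −0.01 over all genes. For NF-kB genes it was negative for 15 of 17, with a median of −0.29 and 0 called. For interferon-stimulated genes it was negative for 10 of 11, with a median of −0.53 and 0 called, and for 6 of 8, with a median of −0.37, without the 18 members. Without the 18 members with tumor or stromal RNA, 11 of 19 maturation and 10 of 17 NF-kB genes were negative, with medians of −0.05 for both lists. Class II genes other than *Cd74* had a median of 0.15 with all members and 0.42 without those 18, with 0 called.

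The effect of PancVAX was also compared between preparations. An interaction term over 15 libraries with at least 10 members (the isotype control Percoll library had 8) called 0 of 3362 genes in edgeR, with 131 at an unadjusted *P* below 0.05.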

How the data were processed

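The authors dissociated pooled tumors, made 5′ 10x Chromium libraries, and counted reads with Cell Ranger 4.0.0, and per the labels the genome build was mm10. The deposited values are raw UMI counts per gene and barcode for 16 RNA libraries, and contigs of 8 T cell receptor libraries were also used. The number after a barcode gave its library. Barcodes with at least 1000 UMIs and under 10% mt- UMIs were kept, with no doublet caller. Libraries held 77132398 to 176233225 UMIs.

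The members and gene lists were chosen with earlier results of these data known. Levels are UMIs per 10000 in summed cells, so that deep cells weigh more. Shares were compared over 8 pools by two-sided exact permutation tests. Counts summed by pool were fitted with edgeR 4.0.16 (R 4.3.3, TMM, filterByExpr, quasi-likelihood) with 1 term for each of the 3 agents, and adjusted by Benjamini-Hochberg over all genes tested. Separate mice were not measured and each treatment had 1 pool, so *P* values cover the spread between pools of different treatments. The model took the effects of agents as additive, so this spread joins differences between pools with any combined effect of agents. Named genes were those of the lists and, per agent, up to 10 higher and 10 lower calls. *Scin*, in no list and not called, was added after its values were seen. Code was checked on simulated counts. Alternatives included DESeq2 1.42.0 and limma 3.58.1. Intervals are exact binomial at 95%, and a count of 0 was bounded by 3 counts.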

Additional observations from a re-analysis of the deposited data

Results flagged for a closer look

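In groups of 4 pools, 2 of 28 groups tested held a pool whose gap to its nearest neighbor exceeded Dixon's 95% limit for its share of the group's range, and chance flags about 1 in 20 groups. Among pools without anti-CTLA-4, the share of mature migratory dendritic cells was 0.296% with PancVAX and anti-PD-1, and the next highest was 0.207% (gap 0.840 of the range). This rested on its whole tumor library at 0.422%, since its Percoll library stood at 0.169%, between the 0.159% and 0.181% of other Percoll libraries without anti-CTLA-4. Among the same pools, *Prdx6* stood at 1.34 per 10000 with PancVAX alone, and the next highest was 1.07 (gap 0.871 of the range). Without the 18 members with tumor or stromal RNA *Prdx6* stood at 1.14, 1.07, 1.02, and 0.755 in these pools, so the highest no longer stood apart. No explanation of either was tested.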

How the results depend on the processing

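Few members per pool limit these results: a share rested on 23 to 59 cells and a call could rest on a few cells rich in a gene. In tests by pool, calls numbered 1 for PancVAX, 0 for anti-PD-1, and 7 for anti-CTLA-4, the order kept below. DESeq2 gave 4, 0, and 22, and no filter on low counts gave 61, 40, and 112. The fit of libraries with preparation as a covariate and the fit with the pool as a replicate block (correlation of paired libraries −0.0232) each gave 0, 0, and 0. Both used 15 of 16 libraries and tested 3362 genes. Whole tumor libraries alone gave 0, 0, and 0, and Percoll libraries alone 2, 0, and 0. The study's limits on cells kept 189 of the 292 members and 967354 of their 3057915 UMIs, tested 1848 genes, and gave 0, 0, and 1. *Ccr7* of at least 3 UMIs gave 0, 0, and 2, and removal of members with T or NK cell RNA 0, 0, and 1. Removal of 30 members with 10 or more UMIs of the macrophage list gave 3, 0, and 2. Of these 30, 13 held tumor or stromal RNA and 5 reached 10 UMIs without *Spp1*. Removal of members with tumor or stromal RNA, an alternative chosen after seeing the data, gave 0, 0, and 0. Leaving out each pool in turn gave 0 to 3 calls for PancVAX, 0 to 1 for anti-PD-1, and 1 to 9 for anti-CTLA-4. The *Cfp* call with PancVAX was kept in 7 of 16 alternatives. The *Krt8* call with anti-CTLA-4 was kept in 3 of 18 and that of *Sparc* in 4 of 18. Under the study's limits on cells the log2 fold change with anti-CTLA-4 turned to −1.13 for *Ly6e* and −0.12 for *Ier3*. The causes were not tested.

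The share of mature cells in Percoll libraries differed from that in whole tumor libraries by −0.0662 percentage points. This became −0.0242 with cells thinned to 1000 UMIs, where the shares themselves fell and their ratio was 0.779 against 0.758. It was −0.0157 among *Ptprc* cells, which kept 144 of the 292 members, and −0.0532 with barcodes of 1 library only (exact permutation *P* = 0.0547). It was −0.133 under the study's limits on cells and −0.0882 with mt- UMIs under 5% (exact permutation *P* = 0.0234 and 0.00781). With *Ccr7* of at least 3 UMIs it was −0.0613, and without members with tumor or stromal RNA −0.0694 (exact permutation *P* = 0.0312 and 0.0156). Leaving out each treatment gave −0.0778 to −0.0395. Treatment differences in shares that changed sign, in percentage points and with no call in any setting, were these. For anti-PD-1 among all cells the difference was 0.00201 without members with tumor or stromal RNA, 0.0251 in whole tumor libraries, and −0.0211 to 0.0371 on leaving out a pool. For anti-CTLA-4 among all cells it was −0.00589 in whole tumor libraries. Among conventional dendritic cells it was 0.958 for anti-PD-1 under the study's limits, 0.0336 for anti-PD-1 with mt- UMIs under 5%, 1.00 for PancVAX among *Ptprc* cells, and 2.77 for anti-CTLA-4 in Percoll libraries. Leaving out a pool gave −1.79 to 0.132 for PancVAX, −1.48 to 0.271 for anti-PD-1, and −1.21 to 0.702 for anti-CTLA-4 among conventional dendritic cells.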
